A study of Homo sapiens with 2 samples.

Results

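The 38 genes described here belong to the hypoxia response and glycolysis. They were chosen by name, and their rows were found through the Ensembl IDs that map to their symbols. All 38 were among the 22965 genes with readable counts, and all passed the minimum of 10 counts in the mean of the 2 libraries. They fall into 8 oxygen sensors and subunits of the hypoxia-inducible factor (HIF), 12 hypoxia-induced target genes and 18 genes of glycolytic enzymes.

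HIF is a transcription factor made of an oxygen-controlled alpha subunit and the stable partner ARNT. With oxygen present, prolyl hydroxylases mark the alpha subunit, the VHL ubiquitin ligase binds the mark, and the protein is degraded. Without oxygen the alpha subunit persists and the complex binds short DNA sites near genes of glucose uptake, glycolysis, blood vessel growth and mitochondrial turnover. HIF alpha is thus controlled mainly as a protein, and its mRNA is not a readout of its activity. Cancer cells often run glycolysis at a high rate with oxygen present as well.

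RNA was sequenced from H460, an established line of human large-cell lung carcinoma, grown in DMEM with 10% serum. The vector library came from control cells labelled only as vector, and the PKP2 library from cells given PKP2, which encodes a desmosomal plaque protein, through the pSin-puro construct. Each group had 1 library, both cultures were at passage 5, and the genotype labels read control and overexpression of PKP2. The comparison asked which genes lie downstream of PKP2. No oxygen or glucose condition is given in the labels, and whether the cells were a clone or a pool is not stated.

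The libraries held 23513304 (vector) and 20319137 (PKP2) counts. PKP2 was counted 181 times with the vector and 1330 times with the construct, so its log2 ratio of 3.11 has the direction the labels give. Of 6 epithelial markers, 5 had counts, with a summed level of 1230 CPM in the vector library against 1237 CPM in the PKP2 library, where CPM is a gene's count per 1000000 counts of the scaled library. This sum hides opposite differences: KRT19 had a log2 ratio of 1.08, while KRT8 was at -0.58, KRT18 at -0.41, KRT7 at -0.76 and EPCAM at -0.57. EPCAM was low, at 28 and 16 counts, and no row was matched to CDH1. Fibroblast markers summed to 51.3 CPM in the vector library against 29.2 CPM in the PKP2 library. COL3A1 had 973 and 333 counts and PDGFRB 111 and 208, and no row was matched to DCN. The other markers with counts were CD68 of blood cells (15.3 and 20.5 CPM), NAPSA of alveolar cells (8 and 0 counts) and VWF of endothelium (2 and 0 counts). They were the only ones with a row among 4 blood cell, 4 alveolar and club cell and 3 endothelial markers looked up. The part of these markers in what follows was not tested. With 1 library per group no difference here has a replicate check, and a lower count cannot be told apart between fewer expressing cells and less RNA per cell.

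Each gene was described by the log2 ratio of its CPM, PKP2 library over vector library, with a 95% interval that covers counting error only. A gene was called higher or lower when the ratio passed 2-fold. Among the 38 members, 2 were at least 2-fold lower (ADM and ANKRD37), none was 2-fold higher, and 36 lay within 2-fold. Over all 15991 genes tested, 4.61% were at least 2-fold lower and 2.47% at least 2-fold higher, so 2 of 38 is near the background. The median ratio of the members was -0.14, against -0.03 over all genes tested. Ratios were below 0 in 28 of 38 members, against 52.7% of all genes tested. The counting interval lay wholly below 0 in 24 members and wholly above 0 in 6, against 28.8% and 25.9% of all genes. These shares are not matched for depth. A mean of 100 or more counts was reached by 36 of the 38 members, and deep counts give narrow intervals.

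A trend with base composition ran through all genes and bears on these values. When genes were ordered by the GC content of their transcript, the median ratio was 0.25 in the 1590 with the lowest content but -0.52 in the 1590 with the highest. Of the 15 members with a GC content over 55%, 14 had ratios below 0. Of the 10 members under 45%, 6 had ratios above 0. No shares over all genes of the same GC classes stand beside these counts. Ratios of the members with the GC trend subtracted are therefore printed as well. After this correction the median was -0.14 over all members, -0.05 over the oxygen sensors and HIF subunits, -0.24 over the hypoxia-induced targets and 0.01 over the glycolytic enzymes. Before it the 3 medians were -0.12, -0.23 and -0.16. Over all genes tested the corrected median was -0.01. Corrected ratios were below 0 in 23 of the 38 members and in 8122 of the 15991 genes tested.

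**Figure D1:**
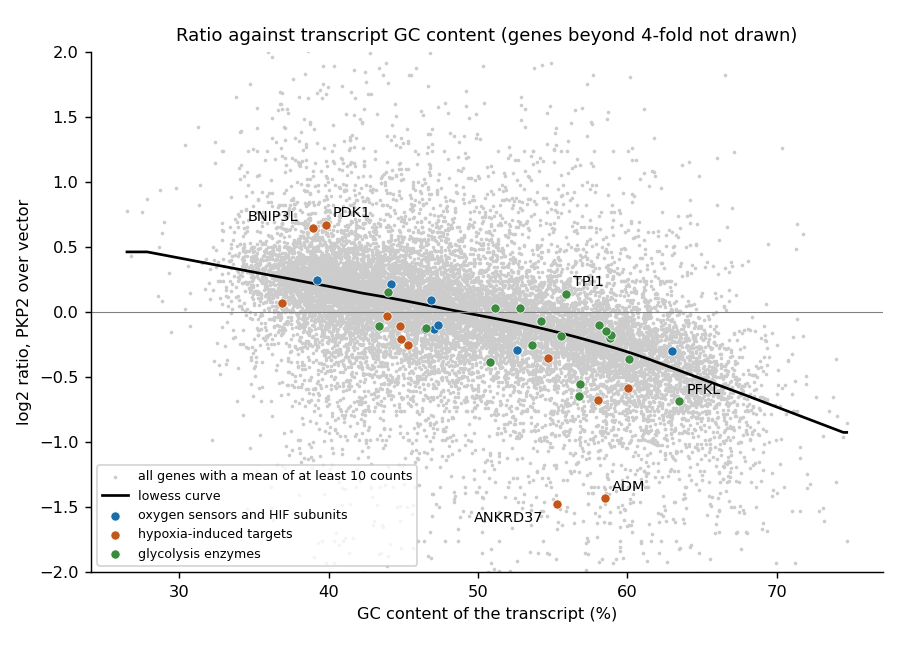
Log2 ratio (PKP2 library over vector library) against GC content of the transcript in percent, for the genes tested that had a transcript (grey points). Genes beyond the limits of the ratio axis are not drawn. The lowess curve is in black and the 38 members are coloured by role. The curve falls from left to right; ADM and ANKRD37 lie far under it, PDK1, BNIP3L and TPI1 above it, and PFKL, with the highest GC content of the members, lies nearer the curve than the zero line.

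Among the oxygen sensors and HIF subunits no member was called, and the ratios ran from -0.30 to 0.24. HIF1A, the widely expressed alpha subunit, was counted 6038 times with the vector against 6064 times with PKP2, or 254 and 301 CPM. Its ratio was 0.24 (interval 0.19 to 0.29), but 0.03 after the GC correction; its transcript has a GC content of 39.2%. EPAS1, which encodes HIF-2 alpha, had 992 and 686 counts, for a ratio of -0.30 (interval -0.44 to -0.15) and -0.21 after the correction. The change in HIF1A relative to EPAS1 can be read from their counts without any library scaling. It was 0.54 on the log2 scale (interval 0.39 to 0.69), and 0.24 after the GC correction. ARNT, the partner of both, had 1251 and 968 counts, for a ratio of -0.13 (-0.18 GC-corrected).

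Of the 3 prolyl hydroxylases, EGLN1, the main oxygen sensor of most cells, had 2463 and 2431 counts, for a ratio of 0.22 (interval 0.14 to 0.30; 0.11 GC-corrected). EGLN3, itself a HIF target, had 547 and 423 counts, for a ratio of -0.13 with an interval of -0.32 to 0.05 (-0.19 GC-corrected). EGLN2 had 311 and 214 counts, for a ratio of -0.30 that was 0.13 after the GC correction. The read-through gene RAB4B-EGLN2 overlaps EGLN2 on the same strand and had 140 and 136 counts; summed with it, EGLN2 had a ratio of -0.13 (interval -0.33 to 0.08). Its direction is therefore not settled. HIF1AN, the asparagine hydroxylase that blocks HIF's coactivator binding, had 1873 and 1697 counts, for a ratio of 0.09 (0.05 GC-corrected). Genes on the opposite strand overlap it (3069 and 1981 counts summed, NDUFB8 among them), and with them added the ratio was -0.19. VHL had 557 and 442 counts, for a ratio of -0.10 with an interval of -0.28 to 0.09 (-0.13 GC-corrected).

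Hypoxia-induced targets held both the lowest and the highest ratios of the members. ADM, which encodes the vessel-relaxing peptide adrenomedullin, was counted 216 times with the vector against 68 times with PKP2, or 9.10 and 3.38 CPM. Its ratio was -1.43, and both the counting interval (-1.85 to -1.03) and the GC-corrected value (-1.18) lay beyond 2-fold. Its transcript shares no 31-base stretch with another gene in the files, and 2.11% of all genes tested had lower ratios. ANKRD37, a small ankyrin-repeat protein gene, had only 23 and 7 counts, for a ratio of -1.48 (interval -2.94 to -0.21; -1.32 GC-corrected). It overlaps UFSP2, which lies on the opposite strand and had 372 and 406 counts, and the 2 genes share 33.5% of ANKRD37's 31-base stretches. Summed with UFSP2 the ratio was 0.30, but UFSP2 holds most of that sum. Of these 2 members, ADM has the firmer counts.

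At the other end stood PDK1 and BNIP3L. PDK1, the kinase that shuts pyruvate out of the mitochondrial TCA cycle, was counted 1344 times with the vector against 1818 times with PKP2, for a ratio of 0.67 (interval 0.57 to 0.78). BNIP3L, a mitochondrial receptor for autophagy also called NIX, had 585 and 777 counts, for a ratio of 0.65 (interval 0.49 to 0.80). Both passed 1.5-fold, as did 6.87% of all genes tested on the higher side. After the GC correction the ratios were 0.47 and 0.43, and BNIP3L summed with the genes on its opposite strand (PNMA2 and SDAD1P1) was at 0.44. The near relative BNIP3, with a related role, had 4043 and 3191 counts, for a ratio of -0.10 (-0.20 GC-corrected). The change in BNIP3L relative to BNIP3 was 0.75 (interval 0.58 to 0.92; 0.62 GC-corrected), and BNIP3L's share of the pair per kb of transcript was 10.3% in the vector library against 16.2% in the PKP2 library.

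Among the other targets NDRG1, a stress-response gene strongly induced by low oxygen, had 141 and 75 counts, for a ratio of -0.67 (interval -1.10 to -0.26; -0.44 GC-corrected). CA9, the membrane carbonic anhydrase used as a hypoxia marker, was close to silent at 23 and 13 counts. Its ratio was -0.59 (-0.28 GC-corrected), with an interval of -1.69 to 0.46 that took in 0. It overlaps ARHGEF39 on the opposite strand, and the sum had a ratio of 0.10. VEGFA, the vessel growth factor, had 1460 and 972 counts, for a ratio of -0.35 (interval -0.47 to -0.23; -0.21 GC-corrected). The MYC antagonist MXI1 (830 and 591 counts) and the histone demethylase KDM3A (1194 and 876 counts) had ratios of -0.25 and -0.21, or -0.33 and -0.30 after the GC correction. For the glycogen-branching enzyme GBE1 and the sterol regulator INSIG2 the ratios were -0.03 and 0.07, with intervals that took in 0, and after the GC correction -0.15 and -0.19. In all, 9 of 12 targets had ratios below 0, against 52.7% of all genes tested. After the GC correction it was 10 of 12, against 8122 of the 15991 genes tested.

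**Figure D2:**
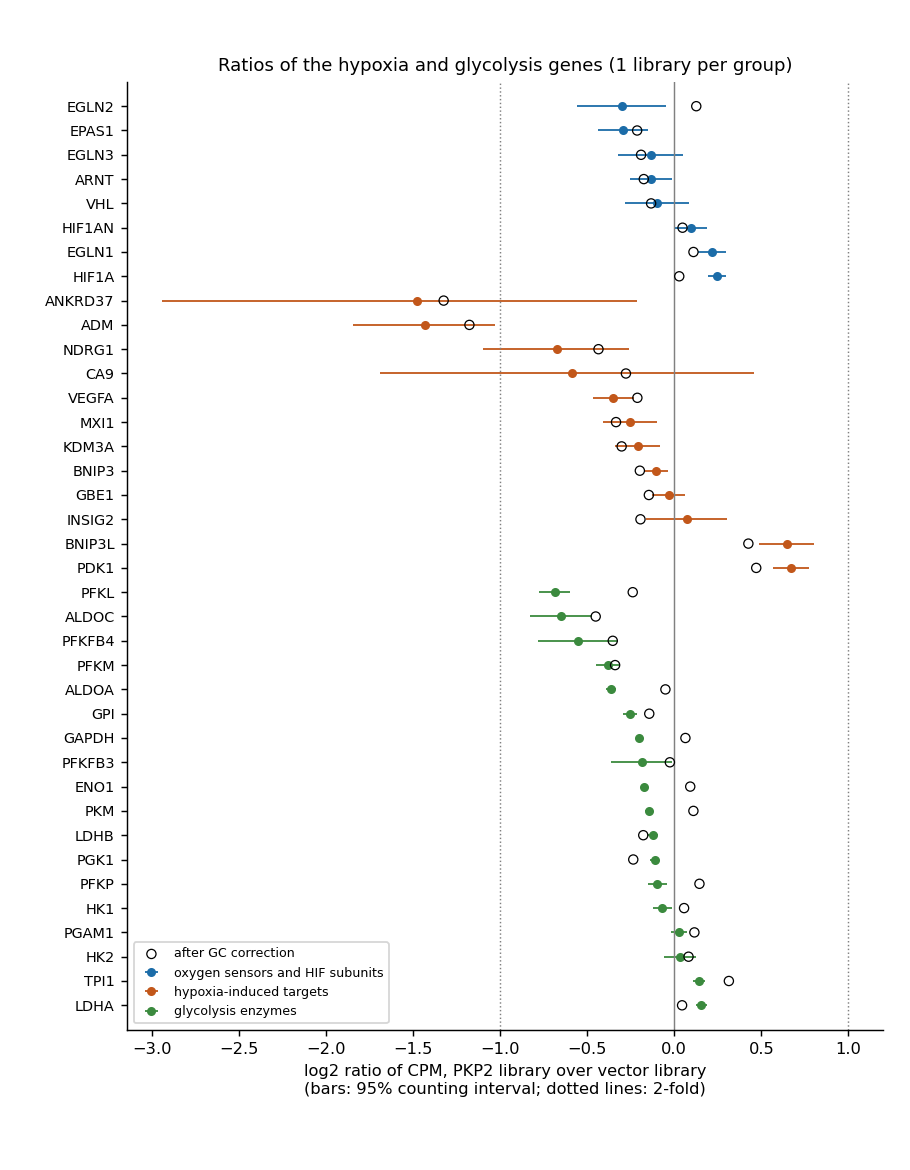
Log2 ratio of CPM, PKP2 library over vector library, for the 38 members grouped by role (filled points; bars are 95% counting intervals, dotted lines 2-fold), with the GC-corrected ratio as an open circle. ADM and ANKRD37 lie left of the 2-fold line, PDK1 and BNIP3L are the farthest right, and the open circles of GAPDH, ENO1, PKM, PFKP and HK1 lie on the other side of 0 from their filled points.

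Promoter sequences show where a HIF site core is present in these genes. The core searched was ACGTG or GCGTG on either strand, in the 250 bases before each start in a RefSeq table (build GRCh38.p14), which held 62 windows for 34 members. VHL, VEGFA, NDRG1 and BNIP3L had no entry. A core was found in 37 of the 62 windows (59.7%), against 43.2% of all 35116 windows in the table. It was found in at least 1 window of 9 of 9 targets, 15 of 18 glycolysis genes and 4 of 7 sensors and HIF subunits with an entry; 47.4% of all genes in the table have one. Genes with several starts have more windows, so shares by gene are raised for them. The palindrome CACGTG, which holds a core on both strands and is also the binding motif of MYC, was in 9 member windows (14.5%) and in 6.34% of all windows. In 54 of the 62 windows the bases after the start were found in a reference transcript of the gene. GAPDH's window, which holds the palindrome, was not among them. The targets were listed as hypoxia-induced genes, so their share of cores is not independent of that choice. A match is a description of letters only.

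Shown are the 250 bases before the start of the 2 members past 2-fold (ADM, ANKRD37), the highest member (PDK1), the lowest glycolysis gene (PFKL) and the highest (LDHA), 5′ to 3′ on the gene's strand. Capitals mark the cores, read forward as ACGTG or GCGTG and on the other strand as CACGT or CACGC. For PDK1 and LDHA, which have 2 windows each, the one with more cores is shown.
ADM chr11:10304823-10305072 (+ strand): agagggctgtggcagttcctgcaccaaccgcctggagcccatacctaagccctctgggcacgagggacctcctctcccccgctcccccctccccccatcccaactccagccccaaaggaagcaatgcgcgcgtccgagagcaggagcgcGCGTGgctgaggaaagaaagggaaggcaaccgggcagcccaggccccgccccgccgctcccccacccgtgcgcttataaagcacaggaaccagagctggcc
ANKRD37 chr4:185396591-185396840 (+ strand): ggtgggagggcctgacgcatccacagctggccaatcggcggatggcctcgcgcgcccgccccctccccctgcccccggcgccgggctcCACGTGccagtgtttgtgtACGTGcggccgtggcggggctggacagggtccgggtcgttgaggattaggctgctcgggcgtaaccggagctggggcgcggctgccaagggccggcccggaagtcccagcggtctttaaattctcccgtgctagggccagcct
PDK1 chr2:172555840-172556089 (+ strand): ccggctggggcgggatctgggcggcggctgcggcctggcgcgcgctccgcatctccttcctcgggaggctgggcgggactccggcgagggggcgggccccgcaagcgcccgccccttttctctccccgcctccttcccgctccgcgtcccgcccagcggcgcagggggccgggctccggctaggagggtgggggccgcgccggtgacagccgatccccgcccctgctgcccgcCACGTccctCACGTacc
PFKL chr21:44299803-44300052 (+ strand): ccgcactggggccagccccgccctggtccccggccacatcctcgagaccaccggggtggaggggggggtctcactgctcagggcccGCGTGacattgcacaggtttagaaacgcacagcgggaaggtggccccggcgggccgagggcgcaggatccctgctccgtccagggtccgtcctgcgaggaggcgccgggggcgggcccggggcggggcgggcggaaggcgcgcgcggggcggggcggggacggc
LDHA chr11:18394313-18394562 (+ strand): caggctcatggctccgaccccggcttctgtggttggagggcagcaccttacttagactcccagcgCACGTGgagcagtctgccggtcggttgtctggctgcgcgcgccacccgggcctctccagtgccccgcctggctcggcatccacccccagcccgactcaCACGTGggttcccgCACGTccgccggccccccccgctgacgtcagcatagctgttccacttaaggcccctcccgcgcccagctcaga

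ADM and PFKL each hold 1 core, starting 101 and 164 bases before the start. ANKRD37 holds 3 matches, which include the palindrome CACGTG, and PDK1 holds 2 within 17 bases of the start. LDHA holds 5 matches, with the palindrome present more than once. The windows of PDK1 and LDHA were picked for holding more cores, and the other windows of these genes hold 0 and 1 matches. The highest and lowest genes were picked by ratios without the GC correction. Whether cores go with the ratios was therefore not tested.

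The glycolytic enzymes held most of the counts of the 38 members. Their 18 genes took 1.90% of all counts in the vector library (446392 counts; exact binomial interval 1.89 to 1.90%) and 1.67% in the PKP2 library (339004 counts; 1.66 to 1.67%). GAPDH, which oxidises glyceraldehyde 3-phosphate, was the largest single part, with 0.749% of the counts in the vector library against 0.640% in the PKP2 library. None of the 18 was called. Their mean counts ran from 346.5 to 153140, and at such depth even small ratios can have intervals that leave out 0. Of all genes tested, 52.7% had ratios below 0, or 8122 of 15991 after the GC correction, and 28.8% had an interval wholly below 0. Ratios of the enzymes were below 0 in 14 of 18, with the counting interval wholly below 0 in 14. After the GC correction, however, 9 of 18 were below 0. The most abundant enzymes show this: GAPDH (176193 and 130088 counts) was at -0.20, ENO1, enolase, at -0.18 and PKM, pyruvate kinase, at -0.15, and with the GC correction these were 0.06, 0.09 and 0.11. Their intervals are narrow, about 0.01 to 0.02 on either side, so the choice of correction decides the sign and counting error does not.

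**Figure D3:**
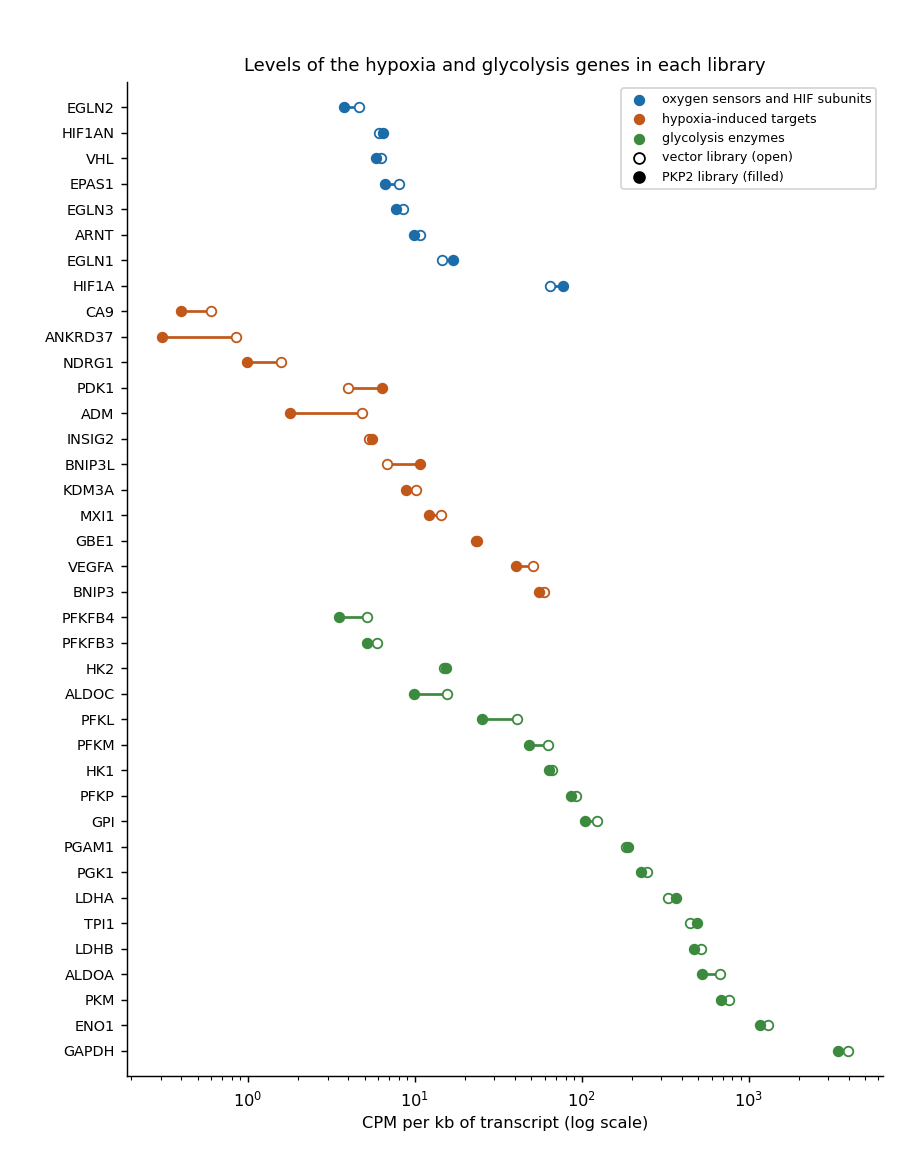
Level of each member in CPM per kb of transcript (log axis) in the vector library (open circles) and the PKP2 library (filled circles), grouped by role. Glycolysis genes span from PFKFB4 at the low end to GAPDH at 3961 and 3445; ANKRD37 and CA9 are the lowest of all members.

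The enzymes spanned a wide range on a per-length scale. GAPDH stood at 3961 CPM per kb in the vector library against 3445 in the PKP2 library, followed by ENO1 (1315 and 1165), PKM (758 and 685) and ALDOA (677 and 527). Hexokinases summed to 81.6 and 78.9 CPM per kb, and phosphofructokinases to 196 and 160. Of the 18 genes, 14 held the same rank in both libraries. The exceptions were LDHB with TPI1 and ALDOC with HK2, neighbours that traded places. These levels use 1 transcript per gene, so genes with long untranslated ends, such as PGK1 at 4887 bases, may be set too low.

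The first steps of glycolysis were traced gene by gene. HK1, the housekeeping hexokinase, had 5704 and 4616 counts, for a ratio of -0.07, and HK2, the inducible one, 2046 and 1776, a ratio of 0.03 with an interval of -0.06 to 0.12. After the GC correction they were at 0.06 and 0.08. The change in HK2 relative to HK1 was 0.10 (interval -0.01 to 0.21), so no difference between them was detectable at this depth. GPI, the next enzyme, had 12338 and 8788 counts, for a ratio of -0.25 (-0.14 GC-corrected).

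Phosphofructokinase, the committed step, is encoded by 3 members whose ratios differed. PFKL, the liver-type subunit, was counted 2811 times with the vector against 1481 times with PKP2, for a ratio of -0.69 (interval -0.78 to -0.60). PFKM, the muscle type, had 4794 and 3122 counts, for a ratio of -0.38, and PFKP, the platelet type, 5820 and 4620, a ratio of -0.10. With the GC correction PFKM was at -0.34 and PFKP at 0.14. Per kb, PFKP's share of the 3 was 47.2% in the vector library against 54.1% in the PKP2 library, while PFKL's was 20.8% and 15.8%. The change in PFKP relative to PFKL was 0.59 (interval 0.48 to 0.70), and 0.38 after the GC correction. Relative to PFKM it was 0.29 (interval 0.20 to 0.37) and 0.48 corrected. PFKL has a GC content of 63.5%, the highest of all members, and was at -0.24 after the correction. PFKM overlaps SENP1 on the opposite strand, and summed with it was at -0.24 without a GC correction.

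The regulatory PFKFB enzymes make and break fructose 2,6-bisphosphate, the activator of phosphofructokinase, and neither passed 1.5-fold. PFKFB4 had 439 and 254 counts, for a ratio of -0.55 (interval -0.78 to -0.33; -0.35 GC-corrected). PFKFB3 had 628 and 468 counts, for a ratio of -0.19 (interval -0.36 to -0.01; -0.03 GC-corrected). The change in PFKFB3 relative to PFKFB4 was 0.37 (interval 0.08 to 0.65).

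The aldolases split fructose 1,6-bisphosphate, and ALDOA supplied 97.8% of the pair per kb in the vector library against 98.2% in the PKP2 library. It had 25750 and 17005 counts, for a ratio of -0.36 (interval -0.39 to -0.33), lower than those of GAPDH, ENO1, PKM and PGK1, but -0.05 after the GC correction. ALDOC, known from brain, had 730 and 395 counts, for a ratio of -0.65 (interval -0.83 to -0.47; -0.45 GC-corrected). TPI1, which interconverts the triose products, went the other way. It had 13015 and 12187 counts, for a ratio of 0.14 (interval 0.11 to 0.18), or 605 CPM in the PKP2 library against 549 in the vector library, and 0.31 after the GC correction. Adding its 4 pseudogenes left it at 0.12.

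Of the later enzymes, PGK1 and PGAM1 had ratios of -0.11 (28430 and 22336 counts) and 0.03 (8050 and 6969 counts), and PGAM1's interval of -0.02 to 0.08 took in 0. The GC-corrected ratios were -0.24 for PGK1 and 0.12 for PGAM1. Of the 31-base stretches of PGAM1, 35.1% also occur in other genes, so its counts are less certain. LDHA, the lactate dehydrogenase subunit that HIF induces, had 18811 and 17783 counts, for a ratio of 0.16 (interval 0.13 to 0.19; 0.04 GC-corrected). LDHB, the subunit typical of heart, had 18806 and 14658 counts, for a ratio of -0.12 (interval -0.15 to -0.09; -0.18 GC-corrected). The vector library thus held nearly equal counts of both. The change in LDHA relative to LDHB was 0.28 (interval 0.24 to 0.32; 0.22 GC-corrected), and LDHA's share of the pair per kb was 38.9% in the vector library against 43.6% in the PKP2 library. Summed per kb the 2 genes differed little, at 844 and 839.

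**Figure D4:**
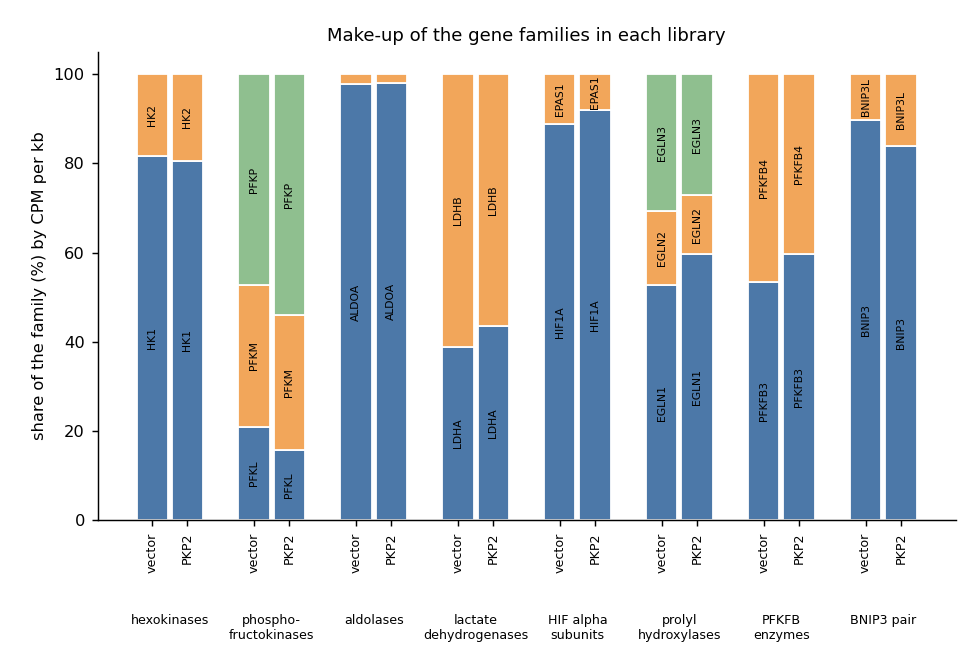
Share of each gene in its family, in percent of the summed CPM per kb of transcript, in the vector and PKP2 libraries (ALDOC, the small upper part of the aldolase bars, is unlabelled). The shares of PFKP, LDHA, EGLN1, HIF1A, PFKFB3 and BNIP3L are larger in the PKP2 library, and those within the aldolases and the hexokinases are similar in both libraries.

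Of 12 such pairs within families, the counting interval of the relative change left out 0 in 10. No background over other gene pairs stands beside this count. These intervals cover counting error only, and with deep counts they can leave out 0 for small differences. The GC correction took EGLN1 relative to EGLN2 from 0.52 to -0.02, and PFKM relative to PFKL from 0.31 to -0.10. EGLN3 relative to EGLN2 went from 0.17 to -0.32. All other pairs kept their direction, HIF1A and EPAS1, LDHA and LDHB, and BNIP3L and BNIP3 among them.

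At a threshold of 1.5-fold, 6 members were lower (ADM, ANKRD37, NDRG1, CA9, PFKL and ALDOC) and 2 higher (PDK1 and BNIP3L). Among all genes tested 12.9% were at least 1.5-fold lower, so 6 of 38 is again close to the background.

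Neighbouring pathways were taken from lists of non-members. Of 42 other hypoxia-induced genes tested, 3 were at least 2-fold lower and none was higher. Over all genes tested, 4.61% were at least 2-fold lower and 2.47% at least 2-fold higher. The median of the 42 was -0.21 (-0.06 GC-corrected). The long noncoding RNA MIR210HG, host of a hypoxia-induced microRNA, had 44 and 8 counts, for a ratio of -2.22 (interval -3.52 to -1.12). PPFIA4, a liprin of the cell cortex, had 308 and 85 counts, for a ratio of -1.62 (interval -1.98 to -1.27), and STC1, the glycoprotein hormone stanniocalcin 1, had 516 and 181, a ratio of -1.27 (interval -1.53 to -1.03). LOXL2, a collagen-crosslinking lysyl oxidase, was next at -0.93 (-0.68 GC-corrected). With the GC correction MIR210HG was at -1.97, PPFIA4 at -1.36 and STC1 at -1.39. Of the 42 genes, 30 had ratios below 0 and 12 above, and 23 were below 0 after the correction. That compares with 52.7% of all genes tested below 0 before the correction, and 8122 of 15991 after it. The highest ratio was 0.55. The counting interval lay wholly below 0 in 22 and wholly above 0 in 10, against 28.8% and 25.9% of all genes tested.

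The other parts of the HIF machinery had no call in 19 genes, with a median of -0.06 (0.02 GC-corrected). The elongins ELOB (1502 and 788 counts; -0.69) and ELOC (856 and 559; -0.38), which belong to the VHL ligase, were among the farthest from 0, with FKBP8 at -0.44 and RACK1 at -0.41. With the GC correction ELOB was at -0.38, ELOC at -0.64, RACK1 at -0.30 and FKBP8 at 0.14, on the other side of 0. Further parts of the VHL ligase, chosen after their values were seen, were CUL2 and RBX1. CUL2 was at 0.30 (0.07 GC-corrected). RBX1 was at -0.15 (-0.16 GC-corrected), with an interval that took in 0. Carriers of glucose and lactate had ratios on both sides of 0. SLC2A1, the glucose importer GLUT1, had 2586 and 2554 counts, for a ratio of 0.22 (interval 0.14 to 0.30; 0.36 GC-corrected). SLC16A3, the lactate exporter MCT4, had 4207 and 2359 counts, for a ratio of -0.60 (interval -0.67 to -0.52; -0.18 GC-corrected). TXNIP, which curbs glucose uptake and responds to sugar levels, had 845 and 954 counts, for a ratio of 0.41 (0.30 GC-corrected). Carriers chosen after their values were seen were SLC2A3 at -0.18, SLC16A1 at 0.12 and SLC16A7 at 0.30. Before the GC correction neither kind of carrier thus went 1 way. With it these 3 were at -0.25, 0.0008 and -0.04, so no lactate carrier was then clearly higher.

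The remaining genes of glycolysis and transport had no call in 20 tested (median -0.03). Farthest from 0 were HKDC1 (39 and 59 counts; 0.83), LDHD (116 and 60; -0.71), SLC2A12 (47 and 25; -0.67) and SLC16A3. With the GC correction HKDC1 was at 0.93, LDHD at -0.25 and SLC2A12 at -0.85. All 37 genes of pyruvate entry and the TCA cycle were within 2-fold, with a median of -0.03. They ran from PDK2, a sister kinase of PDK1, at -0.58 (-0.28 GC-corrected) to PDHB at 0.38 (0.29 GC-corrected). In the pentose phosphate and glycogen list 1 of 19 was lower, the muscle glycogen phosphorylase PYGM with only 20 and 4 counts (-2.09), and the median was -0.04. PGLS was at -0.86, TKT at -0.45 and PYGB, the brain-type phosphorylase, at 0.47 (10556 and 12389 counts). With the GC correction PYGM was at -1.85, PGLS at -0.31, TKT at -0.21 and PYGB at 0.72.

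**Figure D5:**
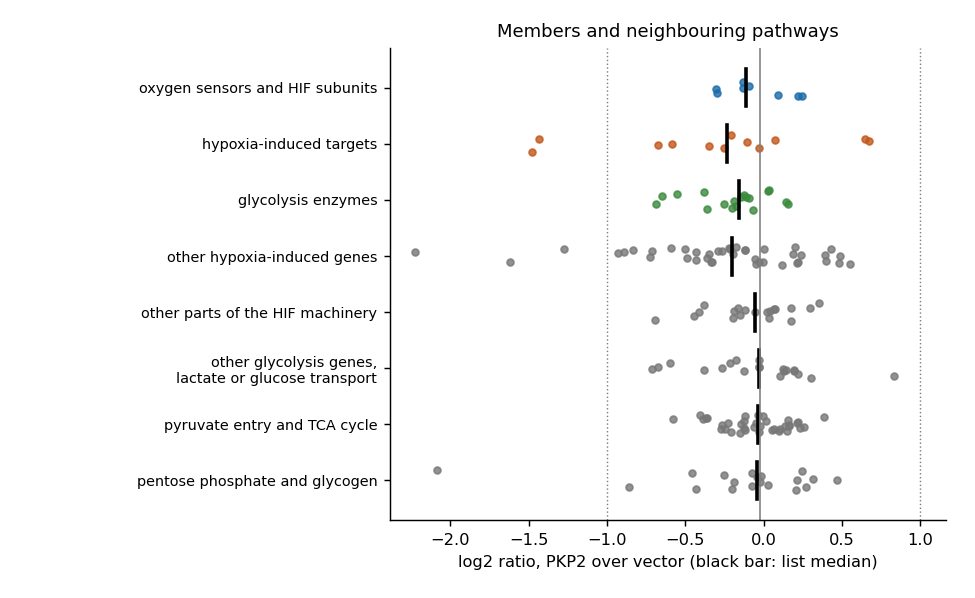
Log2 ratio, PKP2 library over vector library, for each tested gene of the 3 member groups (coloured) and 5 lists of neighbouring pathways (grey); black bars are list medians, the grey line is the median over all genes tested and dotted lines mark 2-fold. Both hypoxia-induced lists hold the genes farthest to the left apart from PYGM, and their medians are -0.23 and -0.21.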

How the data were processed

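Per the labels' protocols, RNA was extracted with Trizol and libraries were built with an Illumina TruSeq kit. Per the submitters' processing notes, Bowtie 0.12.2 and GRCh37 or hg19 were used. The program, annotation and strand setting used for counting were not given in the sources used here. The authors deposited 1 unscaled value per Ensembl ID, handled as an expected count because 1 damaged row per file holds a decimal number; 2 rows per file were left out, and no rounding was needed.

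Library sizes were totals times edgeR 4.0.16 TMM factors (1.01 for vector, 0.991 for PKP2; R 4.3.3), used for scaling only, since 1 library per group allows no test. Ratios carry exact binomial (Clopper-Pearson) 95% intervals of the 2 counts. Relative changes within families are log2 odds ratios of 4 counts, with exact conditional intervals, or a normal approximation for the aldolases and lactate dehydrogenases. The labels name no molecular identifiers, so reads may repeat a molecule and the intervals cover counting error only.

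Transcript length, GC content, overlaps and shared 31-base stretches came from GENCODE release 29, used by gene ID. Of the genes tested, 99.4% had a transcript. The GC correction subtracted a lowess curve (statsmodels 0.14.6, fraction 0.3) fitted where the mean reached 100 counts. Python 3.11.15, pandas 2.3.3, SciPy 1.17.1 and matplotlib 3.10.9 were used, and DESeq2 1.42.0 size factors were an alternative. Steps were tested on simulated data. Members and lists were chosen with earlier results of these data known. Named non-members were PKP2, SLC2A1, SLC16A3, TXNIP, up to 4 genes per list farthest from 0, and same-strand overlaps or pseudogenes of members; opposite-strand genes and those sharing stretches with PGAM1 were chosen after their values were seen. Protein sequences were not used here. SLC2A1 and SLC2A3 stand in both the other hypoxia-induced and the other glycolysis lists.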

Additional observations from a re-analysis of the deposited data

How the results depend on the processing

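No paired analysis was possible because each group has 1 library, and no library could be left out. Members at least 2-fold higher numbered 0 under every alternative except a 1.5-fold threshold, which gave 2. Members at least 2-fold lower numbered 2 under 3 other scalings, no filter, and with corrections for GC content or length, or with same-strand overlapping genes or pseudogenes added. They numbered 1 with a mean of at least 50 counts, with 1 CPM added, without members sharing at least 20% of their 31-base stretches, and with opposite-strand genes added (chosen after seeing the data). They numbered 6 at 1.5-fold and 0 at 3-fold. The median over members ran from -0.17 to -0.12 in all these settings. ANKRD37 was reversed to 0.30 with opposite-strand genes added, where UFSP2 brings most counts. No member changed sign under the 3 other scalings, which moved all ratios by 0.03 or less. Of 256 single-member values under alternatives, 208 stayed within the counting interval and 47 left it. The remaining 1, ANKRD37 with opposite-strand genes added, was classed apart as reversed, but it was not the only change of sign. The 47 also include changes of sign under the GC correction, as for GAPDH, ENO1, PKM, PFKP and EGLN2. Over all alternatives 27 of 38 members kept their sign. ADM ran from -1.46 to -1.18. For members under 100 counts, such as ANKRD37 and CA9, depth limits what can be seen.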

Other observations

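Many glycolytic genes have processed pseudogenes that could take or give reads. Pseudogenes named for a member were listed for 12 members, 47 genes in all, and each held fewer counts than its member. Those of GAPDH summed to 1435 counts with the vector against 1162 with PKP2, against 176193 and 130088 for GAPDH itself. GAPDHP1 alone held 1229 and 991 of these, a ratio of -0.07. TPI1P1 had 983 and 671 counts, a ratio of -0.31, beside TPI1 at 0.14. BNIP3P1 had 544 and 402 counts, a ratio of -0.20, close to BNIP3 at -0.10. Adding these named pseudogenes moved no member's ratio by more than 0.03. PGAM1 differs, since ENSG00000186076 shares 27.7% of PGAM1's 31-base stretches and had 4897 and 3774 counts, and ENSG00000216285 shares 26.5% and had 2106 and 1477. Both were chosen with their values in view, and their ratios were -0.14 and -0.28, beside PGAM1 at 0.03. Neither was among the named pseudogenes, so neither was added to PGAM1.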
